A study of Rattus norvegicus with 8 samples.

Results

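The data describe 45 genes of mitosis and the mitotic spindle in rat liver. They were chosen by symbol, as the genes whose name in the array's scanner files equals that of a listed member, and all spots of such a probe on the 8 arrays were used. Of the 45 genes, 43 had a probe under that name, with 62 probes between them, and 36 were bright enough to be tested, out of 21677 genes tested on the arrays. Cenpe, a kinetochore motor, and Ncapg, a condensin subunit, were not found by name and were not analysed here. The liver RNA came from male Wistar rats, labelled as age-matched and 4 to a group, with 1 Agilent array per labelled rat. Control rats received maltodextrin, given at 3.0 g/kg body weight. The other rats received structured lipids that contain butyrate (STL) by gavage at 1.65 g/kg body weight a day, a dose of equal energy. Both groups alike were put through the resistant hepatocyte protocol of chemical hepatocarcinogenesis, which started 2 weeks into the treatment, and all livers were taken at week 8. Every comparison is therefore between livers under that protocol.

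Mitosis separates duplicated chromosomes. The cyclin-dependent kinase CDK1, bound to cyclin A or cyclin B, drives entry, the kinetochore ties each chromosome to spindle microtubules, a checkpoint holds anaphase back until all are attached, and the anaphase-promoting complex then marks cyclin B and securin for destruction. The transcripts of these proteins rise late in the cell cycle under the MuvB core with B-MYB and FOXM1, and in resting cells the DREAM complex holds them low through the CHR element in their promoters. Most adult hepatocytes rest, so a liver holds little of this RNA unless its cells have been made to divide.

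Signal is given as log2 of the array's processed signal minus the 75th percentile of that array, so that 0 is the level of the 75th percentile. That percentile lay between 304 (STL 7) and 605 (control 4) units of processed signal, and an array had 54.2% to 62.9% of its probes well above background. For the liver label, all 10 hepatocyte markers were above background on at least 1 array, and albumin lay between 8.34 and 8.78 on the control arrays and between 8.74 and 9.43 on the STL arrays. Control 1 and control 2 differed by about the noise between spots of a probe. Over probes spotted repeatedly, the scaled median absolute deviation of their differences was 1.04 times that between spots within an array, against 2.14 to 6.83 times for the other 27 pairs of arrays. Only spots well above background on every array entered, and this measure gives little weight to outlying probes. They were therefore counted as 1 sample, which leaves 3 control samples and 4 STL samples. Whether these arrays hold RNA of 1 liver was not tested. Rats are numbered as the scanner files are labelled. The authors' series table gives 6 of the 8 arrays another number within their group, so which rat is which inside a group is unsettled, while the groups are not. Where leaving out control 1 and control 2 changes the call of a member, the value without them follows. Such values rest on control 3 and control 4, the highest arrays for 32 of the 36 tested members. The choice of arrays thus widens the gap by itself. A gene said below to fall without the pair did so against these 2 controls only, which is no separate evidence for a difference between the groups. With all samples 0 members were called, so leaving out control 3 or control 4 could take no call away, and it added none. Members lower at an unadjusted p under 0.05 by limma went from 25 to 8 without control 3 and to 9 without control 4.

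Most mitosis and spindle genes had a lower mean signal in the STL livers, and no single gene passed the test. In limma with Benjamini-Hochberg adjustment over all 21677 genes, 0 of the 36 members had an adjusted p under 0.05, where 0.00461% of all genes (1 gene) did. At an unadjusted p under 0.05, 25 members were lower and 1 was higher, against 7.40% of all genes lower and 11.6% higher. The mean was lower in STL for 33 of 36 members, against 41.9% of all genes, and at least 2-fold lower for 21, against 2.35%. The median log2 difference of the members, STL minus control, was -1.19, and that of all genes was 0.06. When all 8 arrays entered as samples, 0 members passed as well (0.0969% of all genes in either direction, 0.0369% lower), while at an unadjusted p under 0.05 the counts were 11 lower (8.03% of all genes) and 2 higher (12.6%).

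The control livers differed among themselves for most members. Control 3 and control 4 held the highest signals of all 8 arrays for 32 of the 36 members, where this order applied to 9.18% of all genes. Between these livers the median absolute difference of a member was 0.14, while their mean exceeded that of control 1 and control 2 by a median of 1.96. The mean of control 1 and control 2 lay within the range of the 4 STL arrays for 23 members, above it for 4 and below it for 9. Of all genes 59.2% lay within, 18.4% above and 22.4% below, so these positions of the pair were near those of genes at large. Control 1 and 2 stood above the STL mean for 16 members, with a median gap of -0.06. The lowest array was most often STL 5 (15 members, 13.4% of all genes), then control 1 (8, 6.91%) and STL 7 (6, 14.6%).

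**Figure D1:**
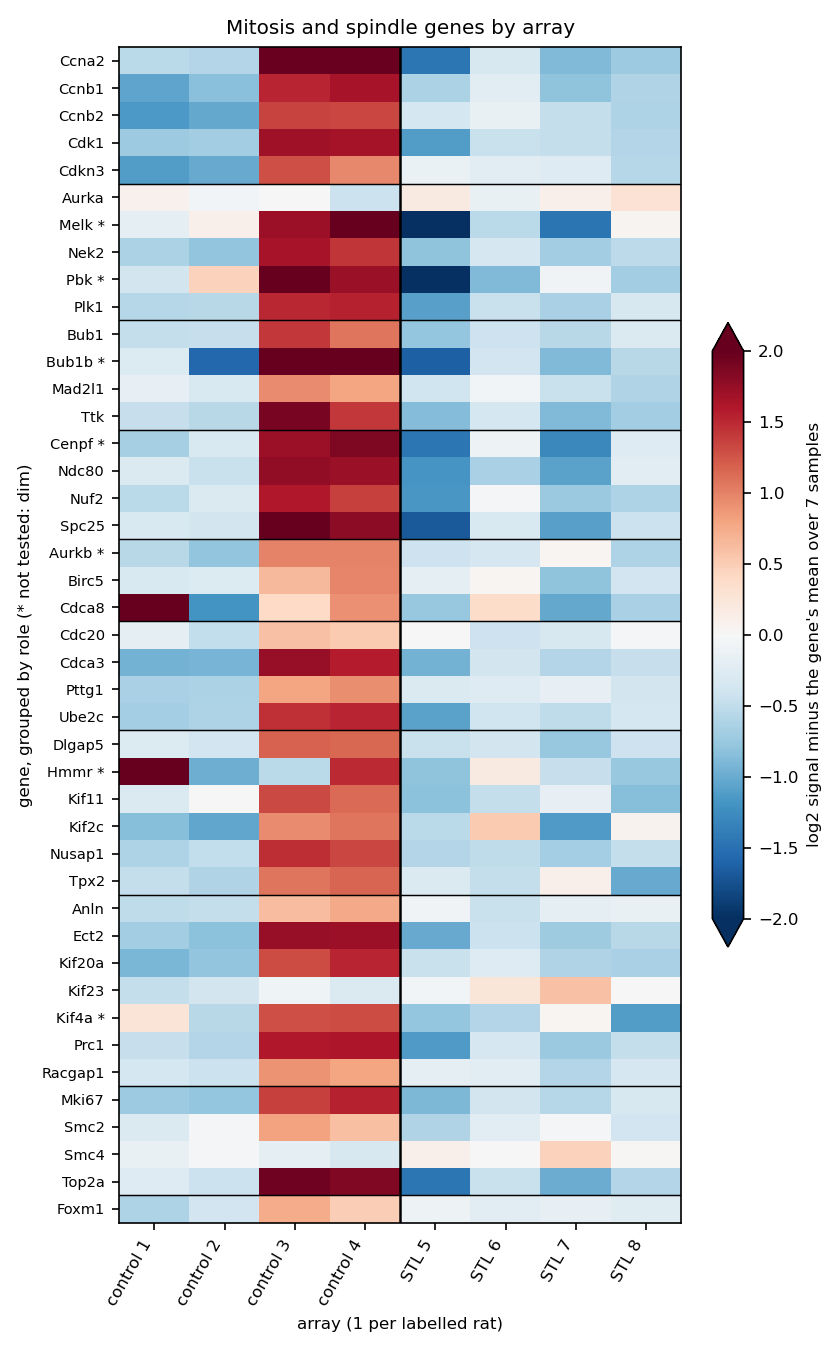
Log2 signal of the 43 members with a probe on each of the 8 arrays, as the difference from the gene's mean over the 7 samples (colour, blue lower and red higher); genes are grouped by role, and an asterisk marks the 7 that were too dim to be tested. Control 3 and control 4 are the red columns, the highest of the 8 for 32 of the 36 tested members.

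Without the pair of control 1 and control 2, so with control 3 and control 4 against 4 STL livers, 26 of 36 members fell in STL at an adjusted p under 0.05 by limma. Of all genes 0.577% did, and 0.927% passed in either direction. Every STL sample then lay below both controls for 33 members, against 12.6% of all genes. Weighting each array by its fitted quality gave 18 members past the threshold, all lower, where 2.98% of all genes were called lower and 7.31% in either direction. Leaving out control 3 instead left 8 members with a lower signal at an unadjusted p under 0.05 (5.02% of all genes), and leaving out control 4 left 9 (5.38%). In either case 0 members passed the adjusted threshold, and the median difference of the members was -0.91 and -0.89. The arrays lay on 1 slide in 4 columns, each with a control and an STL array, and the median difference of the members within a column was -0.18 and 0.23 in the columns of control 1 and control 2. It was -1.93 and -1.85 in the columns of control 3 and control 4. In a whole liver, fewer dividing cells and less RNA in each of them cannot be told apart.

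**Figure D2:**
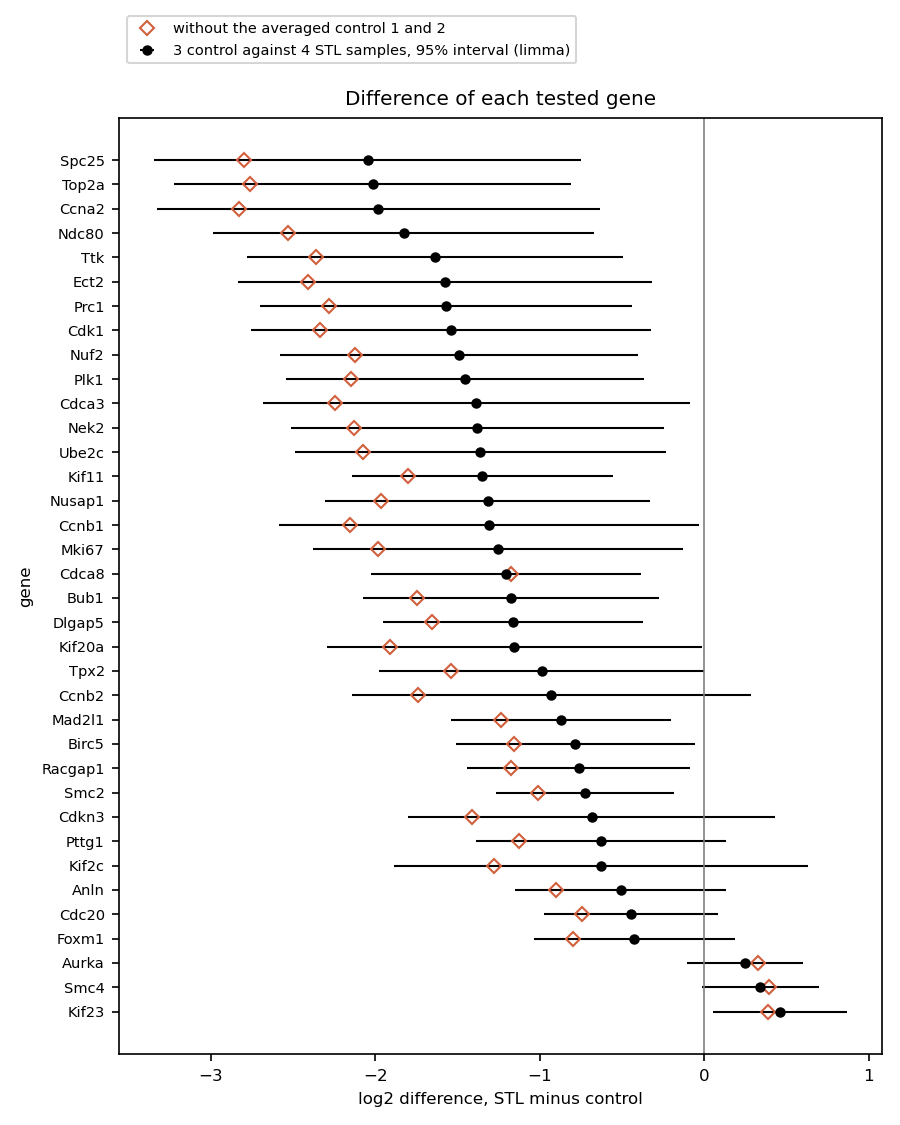
Log2 difference, STL minus control, of the 36 tested members (filled points, 3 control against 4 STL samples, with the 95% interval of limma) and the same without control 1 and control 2 (open diamonds). The filled points run from -2.05 (Spc25) to 0.46 (Kif23), and most diamonds lie further left.

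Promoters of these genes are shown for the 4 named members with the smallest unadjusted p among those with a RefSeq promoter entry, since the members were high and low on the same arrays. Each is the 200 bases before the annotated start in the GRCr8 assembly, read along the gene, with capitals at the CHR letters (TTTGAA or TTCGAA) and the NF-Y box (CCAAT), sought on both strands, where TTCAAA and ATTGG are the reverse. Kif11 lies at chr1:244536667-244536866 on the plus strand. Top2a lies at chr10:84473094-84473293, Ndc80 at chr9:118887530-118887729 and Spc25 at chr3:74396719-74396918, all on the minus strand.
Kif11: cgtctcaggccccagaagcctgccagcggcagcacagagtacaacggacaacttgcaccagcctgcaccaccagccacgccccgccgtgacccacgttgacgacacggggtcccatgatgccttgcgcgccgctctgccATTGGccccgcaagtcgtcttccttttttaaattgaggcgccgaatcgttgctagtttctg
Top2a: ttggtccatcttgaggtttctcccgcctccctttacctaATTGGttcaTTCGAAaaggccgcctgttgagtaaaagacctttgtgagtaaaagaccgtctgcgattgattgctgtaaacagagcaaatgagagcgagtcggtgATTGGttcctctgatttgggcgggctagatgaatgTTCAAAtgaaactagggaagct
Ndc80: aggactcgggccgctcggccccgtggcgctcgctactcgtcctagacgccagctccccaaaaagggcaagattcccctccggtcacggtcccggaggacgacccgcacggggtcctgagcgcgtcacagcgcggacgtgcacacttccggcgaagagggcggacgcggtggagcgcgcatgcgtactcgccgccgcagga
Spc25: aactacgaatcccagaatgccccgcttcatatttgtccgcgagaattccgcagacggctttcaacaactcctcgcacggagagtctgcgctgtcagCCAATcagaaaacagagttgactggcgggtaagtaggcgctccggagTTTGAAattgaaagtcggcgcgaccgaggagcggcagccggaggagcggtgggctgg
Positions are those of a match's first base, read along the gene. The Top2a promoter held 2 CHR matches in this stretch, the nearer at -22 from the start, and that of Spc25 held 1 at -57, each with an NF-Y box upstream of it. Kif11 had an NF-Y box at -61 and no CHR letters. The stretch of Ndc80 held neither, and a CHR match lay at 33 bases after its start.

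Over the window of 250 bases before to 50 after the start, 38 of 45 members had an entry. CHR letters occurred in 27 of them (71.1%), against 19.5% of all 27457 promoters and 14.8% of those of the genes tested here. An NF-Y box occurred in 29 (76.3%, all promoters 37.7%), and both together in 22 (57.9%, all promoters 7.83%). The 2 kinds of match can overlap, as TTTGAATTGG holds both. CHR matches were most frequent between -50 and the start, in 31.6% of members, and NF-Y boxes between -100 and -50, in 57.9%. E2F letters were sought as TTCCCGC on either strand, or alternatively as TTGGCGC on either strand, and likewise as TTCGCGC on either strand and as TTGCCGC. They occurred in 8 members (21.1%, all promoters 10%). In the 39 promoters of genes that copy DNA, E2F letters occurred in 69.2%, CHR letters in 15.4% and an NF-Y box in 61.5%. The 74 promoters of mitosis genes outside the 45 held CHR letters in 58.1%, an NF-Y box in 54.1% and both in 35.1%. Frequent CHR letters and NF-Y boxes were therefore not particular to the members. Among tested members, the 22 with CHR letters had a median difference of -1.23 and the 9 without it -1.17. These matches describe letters in a window and not binding.

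**Figure D3:**
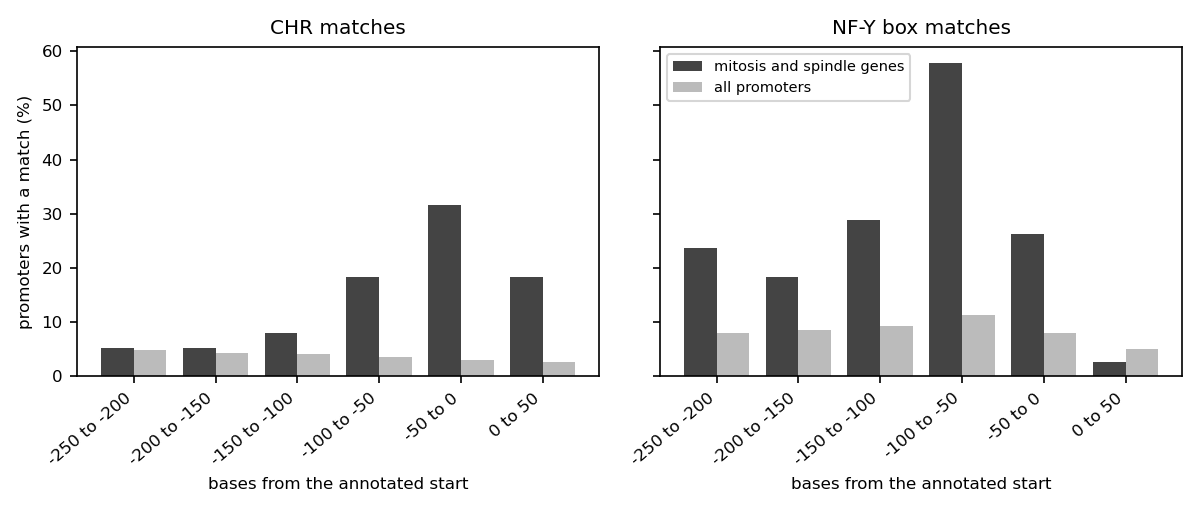
Share of promoters (%) with a CHR match (left) or an NF-Y box match (right) in each 50-base bin around the annotated start, for the 38 members with an entry (dark) and all promoters (light). The dark bars peak at 31.6% between -50 and 0 for CHR and at 57.9% between -100 and -50 for the NF-Y box.

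Among the cyclins, CDK1 and its phosphatase, 5 of 5 tested members were lower, with a median difference of -1.31. Of these, 3 had an unadjusted p under 0.05, where 7.40% of all genes were lower at that level. Ccna2 encodes cyclin A2, which acts in S phase and at mitotic entry. In the livers of control 1 to 4, Ccna2 was at -2.67, -2.73, -0.15 and -0.16, and in those of STL 5 to 8 at -3.59, -2.46, -3.02 and -2.87. Control 3 and control 4 were the high arrays, and STL 6 lay above control 1 and control 2, so the groups overlapped. The means were -1.0 ± 1.47 (SD, n = 3) for control and -2.98 ± 0.47 (SD, n = 4) for STL, a difference of -1.98 with an SE of 0.59 and a 95% interval of -3.33 to -0.63, which is 3.94-fold lower in STL (adjusted p = 0.179 by limma). Without control 1 and control 2, Ccna2 fell by 2.83, or 7.09-fold (limma adjusted p = 0.0102). Without control 3 or without control 4 its difference was -1.55 and -1.56 (limma adjusted p = 0.374 and 0.356). Cdk1, the kinase that drives mitotic entry, followed the same order. With -0.50, -0.48, 1.92 and 1.89 on control 1 to 4, Cdk1 had -0.90, -0.22, -0.25 and -0.37 on STL 5 to 8. Here the other 6 arrays lay below 0 and control 1 and 2 within the STL range. The difference was -1.54 (SE 0.54, limma adjusted p = 0.204). Without the pair Cdk1 fell by 2.34 (adjusted p = 0.00701). Ccnb1 and Ccnb2, the B-type cyclins that CDK1 needs in mitosis, differed by -1.31 and -0.93, and Cdkn3, a phosphatase that acts on CDK1 and CDK2, by -0.68. On all 3 of these genes control 1 and control 2 lay below every STL array. Without that pair the differences were -2.15, -1.74 and -1.41, and all 3 fell at adjusted p-values of 0.00701, 0.00837 and 0.0259 by limma.

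Of the mitotic kinases, Plk1, which acts from centrosome maturation to cytokinesis, and Nek2, which separates centrosomes, had lower means in STL. Plk1 read -1.19, -1.17, 0.88 and 0.91 on control 1 to 4 and -1.71, -1.07, -1.27 and -0.94 on STL 5 to 8. Only control 3 and control 4 were above 0, and control 1 and control 2 lay among the STL arrays. STL minus control was -1.45 for Plk1, with an SE of 0.48 and an adjusted p of 0.194 by limma. For Nek2, log2 signals were -1.52, -1.68, 0.75 and 0.53 on the controls (1 to 4) and -1.70, -1.23, -1.59 and -1.42 on the STL arrays (5 to 8). Its order was alike, with control 1 and 2 inside the STL range. This gave Nek2 a difference of -1.38 (SE 0.50, adjusted p = 0.209 by limma). A second probe of Nek2, above background on 2 arrays, was not tested, and the mean of both probes differed by -0.78. Without control 1 and 2, Plk1 fell by 2.15 (limma adjusted p = 0.0102) and Nek2 fell by 2.13 (0.00701).

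Aurka, which encodes the centrosomal and spindle pole kinase Aurora A, was read by a pair of probes that differed in sign, so both are shown by the first 30 bases of the probe as the files give it. They lie on chromosome 3 at 163267842 to 163267901 (probe 1) and at 163271264 to 163271323 (probe 2) in the rn4 build.
Aurka probe 1: cttggtgacattttaagtcacgcgtacatg
Aurka probe 2: caggcctggaaaagctgttggaatggatat
On control 1 to 4, Aurka lay at 1.68, 1.53, 1.57 and 1.16, and on STL 5 to 8 at 1.77, 1.43, 1.69 and 1.87. That is the first probe, the brighter one, on which the groups overlapped and control 4 was lowest. Aurka differed by 0.25 (SE 0.15), at a limma adjusted p of 0.390. On probe 2 the difference was -0.56, and control 3 and control 4 stood highest at 0.40 and 0.50, while the other 6 arrays lay between -1.06 and -0.48. Probe 2 thus had the order of arrays seen in most members and probe 1 did not.

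In the spindle checkpoint, 3 of 3 tested members were lower with an unadjusted p under 0.05, against 7.40% of all genes. Ttk encodes the MPS1 kinase that starts checkpoint signalling at unattached kinetochores. Ttk had signals of -3.06, -3.16, -0.71 and -1.18 on control 1 to 4, against -3.47, -2.96, -3.48 and -3.29 on STL 5 to 8. Both high arrays were controls, and control 1 and control 2 lay between STL 6 and STL 8. The difference was -1.63 (SE 0.50, limma adjusted p = 0.183). Bub1, a kinase that scaffolds the checkpoint at the kinetochore, had a similar order. In the livers of control 1 to 4, Bub1 was at -1.27, -1.25, 0.63 and 0.28, and in those of STL 5 to 8 at -1.56, -1.20, -1.33 and -1.07. Control 1 and control 2 lay inside the STL range, so the groups overlapped. STL minus control was -1.17 for Bub1, with an SE of 0.40 and an adjusted p of 0.196 by limma. Mad2l1 encodes MAD2, the part of the checkpoint that binds the activator of the anaphase-promoting complex. With -2.62, -2.75, -1.5 and -1.66 on control 1 to 4, Mad2l1 had -2.85, -2.50, -2.89 and -3.05 on STL 5 to 8. Control 1 and 2 again fell within the STL range. This gave Mad2l1 a difference of -0.87 (SE 0.29, adjusted p = 0.196 by limma). Once control 1 and control 2 were left out, all 3 fell, with differences of -2.36 for Ttk, -1.75 for Bub1 and -1.24 for Mad2l1 (limma adjusted p = 0.0102, 0.0106 and 0.0490). A second probe of Mad2l1 differed by -1.02, in the same direction.

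The outer kinetochore had the most negative median difference of any role, -1.83 over its 3 tested members, Spc25, Ndc80 and Nuf2. These encode subunits of the NDC80 complex, which grips the spindle microtubule. Spc25 read -1.83, -1.89, 0.53 and 0.26 on control 1 to 4 and -3.21, -1.84, -2.61 and -1.96 on STL 5 to 8. STL 6 and control 1 were level, and STL 5 and STL 7 were the lowest. The means were -0.36 ± 1.31 (SD, n = 3) for control and -2.40 ± 0.63 (SD, n = 4) for STL, a difference of -2.05 with an SE of 0.57 and a 95% interval of -3.35 to -0.75, which is 4.13-fold lower in STL (adjusted p = 0.178 by limma). For Ndc80, log2 signals were -2.45, -2.60, -0.39 and -0.42 on the controls (1 to 4) and -3.34, -2.81, -3.23 and -2.37 on the STL arrays (5 to 8). STL 8 lay above control 1 and control 2, so the groups overlapped here too. Ndc80 differed by -1.82 (SE 0.51), at a limma adjusted p of 0.178. Its other probes were above background on 0 and 2 arrays and were not tested, and the mean of its probes differed by -0.96. Nuf2 differed by -1.49 (unadjusted p = 0.0129), with STL 6 above control 1 and 2. All 3 had the same pair of high arrays, and without control 1 and control 2 they fell by 2.80, 2.53 and 2.12 (limma adjusted p = 0.0246, 0.0120 and 0.0308).

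The chromosomal passenger complex corrects faulty attachments and later sits at the midzone. Birc5, which encodes its subunit survivin, had no position in the files. On control 1 to 4, Birc5 lay at -2.41, -2.37, -1.44 and -1.11, and on STL 5 to 8 at -2.29, -2.06, -2.90 and -2.47. Control 1 and 2 lay within the STL range, and STL 7 was lowest. The difference was -0.78 (SE 0.32, limma adjusted p = 0.242). Cdca8, the gene of borealin, was read by a single spot above background on 3 control arrays and 1 STL array. Cdca8 had signals of -1.64, -5.55, -3.95 and -3.43 on control 1 to 4, against -5.09, -3.98, -5.37 and -5.00 on STL 5 to 8. Control 1 was the highest array and control 2 the lowest, although these arrays agreed to a median of 0.12 over the members. The mean of these unlike values set the difference, -1.21 (limma adjusted p = 0.179). It was -0.55 (0.578) with control 2 alone for the pair, when the groups overlapped. Most STL values of Cdca8 are near background, and it passed the filter on low values through the controls.

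Of the anaphase-promoting complex and its partners, 4 of 4 tested members were lower, with a median of -0.99. Ube2c is the E2 enzyme that starts ubiquitin chains on its targets. In the livers of control 1 to 4, Ube2c was at -2.96, -2.89, -0.83 and -0.76, and in those of STL 5 to 8 at -3.35, -2.68, -2.79 and -2.64. Control 1 and control 2 lay within the STL range. STL minus control was -1.36 for Ube2c, with an SE of 0.50 and an adjusted p of 0.211 by limma. Cdca3, an adaptor linked to the degradation of the kinase WEE1, had its values on 10 spots per array. With -1.03, -1.01, 1.66 and 1.48 on control 1 to 4, Cdca3 had -1.03, -0.45, -0.68 and -0.55 on STL 5 to 8. Control 1 and control 2 lay at the level of STL 5, the lowest of its group. This gave Cdca3 a difference of -1.38 (SE 0.57, adjusted p = 0.245 by limma). Pttg1 encodes securin, whose destruction frees separase. Pttg1 read 0.42, 0.43, 1.86 and 2.0 on control 1 to 4 and 0.78, 0.82, 0.90 and 0.71 on STL 5 to 8. Here control 1 and control 2 were the lowest of all arrays and the 4 STL arrays lay close together. Pttg1 differed by -0.63 (SE 0.33), at a limma adjusted p of 0.329. These 3 fell without control 1 and control 2, with differences of -2.07 for Ube2c, -2.25 for Cdca3 and -1.13 for Pttg1 (limma adjusted p = 0.0131, 0.00701 and 0.0106). Cdc20, the activator of the complex in anaphase, differed by -0.44 (unadjusted p = 0.0912).

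Spindle motors and microtubule proteins held 5 tested members, all lower. Kif11 encodes the kinesin motor that pushes spindle poles apart. For Kif11, log2 signals were -1.95, -1.66, -0.35 and -0.53 on the controls (1 to 4) and -2.49, -2.15, -1.83 and -2.52 on the STL arrays (5 to 8). Control 3 and control 4 were the high arrays, and every STL sample lay below every control sample once control 1 and control 2 were averaged, although STL 7 lay above control 1. The means were -0.90 ± 0.79 (SD, n = 3) for control and -2.25 ± 0.32 (SD, n = 4) for STL, a difference of -1.35 with an SE of 0.35 and a 95% interval of -2.14 to -0.56, which is 2.55-fold lower in STL (adjusted p = 0.172 by limma). This separation of the groups held for 4 of 36 members, Top2a, Kif11, Cdca8 and Dlgap5, against 5.63% of all genes. For Cdca8 it rests on the mean of control 1 and control 2, and with control 2 alone for the pair it held for 3 members (5.65% of all genes). It held for 9 members without STL 6 (11% of all genes), for 33 without control 1 and control 2 (12.6%), and for 1 with all 8 arrays taken singly (4.53%). Dlgap5, a spindle protein that stabilises kinetochore fibres, was one of them by a narrow margin. On control 1 to 4, Dlgap5 lay at -2.03, -2.14, -0.59 and -0.62, and on STL 5 to 8 at -2.21, -2.12, -2.52 and -2.18. STL 6 lay above control 2 and below their averaged value. The difference was -1.16 (SE 0.35, limma adjusted p = 0.179). Nusap1 bundles microtubules near chromosomes. Nusap1 had signals of -2.05, -1.94, 0.03 and -0.10 on control 1 to 4, against -2.03, -1.95, -2.11 and -1.91 on STL 5 to 8. The other 6 arrays lay between -2.11 and -1.91, with no gap between the groups. STL minus control was -1.31 for Nusap1, with an SE of 0.43 and an adjusted p of 0.194 by limma. With control 1 and control 2 left out, Kif11, Dlgap5 and Nusap1 fell, with differences of -1.80, -1.66 and -1.97 (limma adjusted p = 0.0203, 0.0106 and 0.00701). Tpx2, which targets and activates Aurora A at the spindle, differed by -0.99 (unadjusted p = 0.0503). Kif2c, a kinesin that takes microtubules apart, was well above background on 4 control and 3 STL arrays. In the livers of control 1 to 4, Kif2c was at -4.14, -4.33, -2.34 and -2.23, and in those of STL 5 to 8 at -3.82, -2.76, -4.43 and -3.22. STL 6 stood closest to control 3 and control 4, and STL 7 was lowest. This gave Kif2c a difference of -0.63 (SE 0.55, adjusted p = 0.546 by limma).

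Among central spindle and cytokinesis genes, 5 of 6 tested members were lower and 1, Kif23, was higher. Prc1 crosslinks the microtubules of the midzone. With -2.69, -2.82, -0.63 and -0.62 on control 1 to 4, Prc1 had -3.36, -2.58, -2.98 and -2.71 on STL 5 to 8. Control 1 and 2 were among the STL arrays. Prc1 differed by -1.57 (SE 0.50), at a limma adjusted p of 0.187. Ect2, the exchange factor that switches on RhoA at the cleavage site, had the same high arrays. Ect2 read -1.88, -2.01, 0.56 and 0.54 on control 1 to 4 and -2.19, -1.60, -1.90 and -1.74 on STL 5 to 8. The other 6 arrays lay below -1.5, and the groups overlapped there. The difference was -1.57 (SE 0.55, limma adjusted p = 0.205). Kif23 encodes MKLP1, the kinesin that forms the centralspindlin complex together with the product of Racgap1. For Kif23, log2 signals were -0.94, -0.84, -0.56 and -0.76 on the controls (1 to 4) and -0.52, -0.23, 0.12 and -0.47 on the STL arrays (5 to 8). STL 7 was highest, and each STL array lay above each control array. The margin was narrow between STL 5 and control 3, and the probe had 1 spot per array. By sample this order held for 2 of 36 members, Kif23 and Smc4, and for 2442 of all 21677 genes. STL minus control was 0.46 for Kif23, with an SE of 0.18 and an adjusted p of 0.228 by limma. It was the only member with a higher mean at an unadjusted p under 0.05, and over all 19 alternatives its difference ran from 0.29 to 0.55. Racgap1, its partner, differed by -0.76 on its brightest probe and by up to -1.76 over its 3 probes, all in the same direction. Kif20a, a midzone kinesin, and Anln, which encodes the scaffold anillin, differed by -1.15 and -0.51. The 5 lower genes fell without control 1 and control 2, with differences of -2.28 for Prc1, -2.41 for Ect2, -1.17 for Racgap1, -1.91 for Kif20a and -0.90 for Anln (limma adjusted p = 0.0106, 0.00701, 0.0307, 0.00701 and 0.0498), while Kif23 stayed higher by 0.39 (0.292). Without control 3 instead, these 5 differed by -1.22, -1.15, -0.53, -0.83 and -0.35 (limma adjusted p = 0.389, 0.427, 0.481, 0.521 and 0.645).

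**Figure D4:**
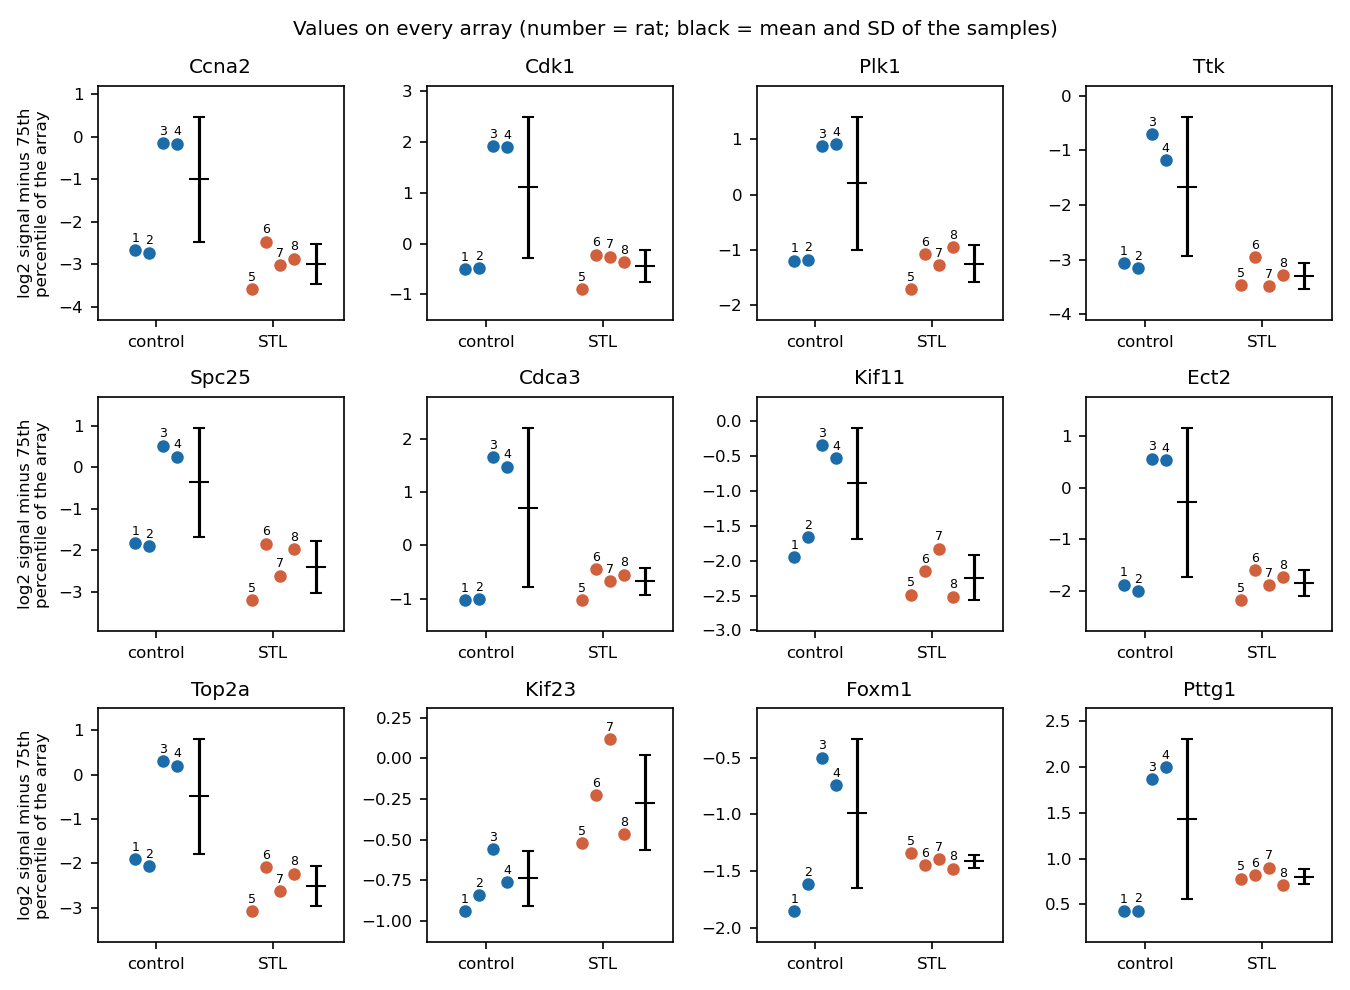
Log2 signal relative to the array's 75th percentile for 12 members on each control (blue) and STL (orange) array, numbered by labelled rat, with the mean and SD of the 3 control samples and 4 STL samples in black. In Ccna2, Cdk1, Plk1, Ttk, Spc25, Cdca3, Ect2 and Top2a rats 3 and 4 stand apart from the other 6, and in Kif23 the STL points lie above the controls.

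The chromosome structure genes separated into Top2a, Mki67 and Smc2, with lower means, and Smc4. Top2a encodes DNA topoisomerase II alpha, which untangles sister chromatids. On control 1 to 4, Top2a lay at -1.90, -2.07, 0.31 and 0.21, and on STL 5 to 8 at -3.08, -2.08, -2.63 and -2.23. It was the only tested member whose 4 STL arrays all lay below each of the 4 control arrays, narrowly so between control 2 and STL 6. The means were -0.49 ± 1.29 (SD, n = 3) for control and -2.51 ± 0.45 (SD, n = 4) for STL, a difference of -2.02 with an SE of 0.53 and a 95% interval of -3.22 to -0.81, which is 4.04-fold lower in STL (adjusted p = 0.174 by limma). Without control 1 and control 2, Top2a fell by 2.76, or 6.79-fold (limma adjusted p = 0.0102). Without control 3 or without control 4 its difference was -1.62 and -1.67 (limma adjusted p = 0.348 and 0.333). Mki67, the gene of the Ki-67 proliferation antigen that coats mitotic chromosomes, differed by -1.25, and over its 4 probes by -1.79 to -1.14. Without the pair it fell by 1.99 (adjusted p = 0.00912). Smc2 encodes an ATPase subunit of condensin. Smc2 had signals of -0.64, -0.38, 0.46 and 0.26 on control 1 to 4, against -0.94, -0.56, -0.38 and -0.72 on STL 5 to 8. Control 1 and control 2 differed more here than in most members and lay within the STL range on average. This gave Smc2 a difference of -0.72 (SE 0.24, adjusted p = 0.194 by limma).

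Smc4 encodes the partner ATPase of Smc2 in condensin, and its probes differed in sign. The first 30 bases of each are shown for that reason. They lie on chromosome 2 at 159001380 to 159001439 (probe 1) and at 159013946 to 159014005 (probe 2) in rn4.
Smc4 probe 1: ttagctcagtccctggccctgggttcagtc
Smc4 probe 2: tttgcaaagagtaggcgaactggacaaaat
In the livers of control 1 to 4, Smc4 was at 8.23, 8.35, 8.20 and 8.06, and in those of STL 5 to 8 at 8.48, 8.37, 8.84 and 8.40. This is the first probe, on which every STL array lay above every control array, STL 7 most and STL 6 narrowly. Counted by sample, 2442 of all 21677 genes had that order. Smc4 differed by 0.34 (SE 0.16), at a limma adjusted p of 0.277. Its mean signal, 8.37, exceeded that of 99.75% of all probes, and it shared a run of 14 bases with 4 other probes, the brightest at 6.57. Whether it reads only Smc4 RNA was not tested. Probe 2 had a difference of -0.60, with control 3 and control 4 at -0.18 and -0.15 and control 1 at -2.04, the lowest array. Averaging the probes of a gene in place of taking the brightest turned the sign for Aurka, to -0.16, and for Smc4, to -0.13. Of the 10 members with more than 1 tested probe, the other 8 had probes of the same sign.

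Foxm1, a transcription factor of late cell cycle genes and itself a member, differed by less than most of the others. With -1.85, -1.62, -0.50 and -0.74 on control 1 to 4, Foxm1 had -1.34, -1.45, -1.39 and -1.48 on STL 5 to 8. The 4 STL arrays lay between -1.48 and -1.34, below control 3 and control 4 and above control 1 and control 2. The difference was -0.42 (SE 0.27, limma adjusted p = 0.399). A second probe of Foxm1, above background on 4 arrays, differed by -0.08, and the mean of both probes by -0.25.

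The 7 untested members were well above background on fewer than 4 arrays. Aurkb (Aurora B, the kinase of the passenger complex), Bub1b (the checkpoint protein BUBR1), Kif4a (a chromosome-bound kinesin), Hmmr (a spindle assembly factor), Melk and Pbk (mitotic kinases) did not stand well above background on the STL arrays. Against the detection limit of the STL arrays, the control mean was 3.45-fold higher for Pbk, 2.74-fold for Melk, 2.27-fold for Bub1b, 2.17-fold for Kif4a and 1.58-fold for Aurkb. The control means include measured signals of control arrays that were not above background. These folds are therefore not strict lower bounds. With no filter on dim genes, limma gave adjusted p-values from 0.266 (Pbk) to 0.481 (Aurkb) for these 5. The folds were computed only for members detected on some control array and on no STL array, a choice that favours a higher control mean. Melk, Bub1b and Aurkb were above background on only 2 control arrays, and Pbk and Kif4a on 3. For Aurkb the mean of control 1 and control 2, -5.22, lay below every STL array (-5.18 to -4.51). Pbk read -4.95, -4.12, -2.28 and -2.87 on control 1 to 4 and -7.04, -5.47, -4.67 and -5.28 on STL 5 to 8. Control 3 and control 4 were again highest, as they were for Melk, Bub1b, Kif4a and Aurkb. Hmmr is given no fold, as its control mean lay below that limit: control 1 read -3.16 and control 2 -6.93, although the other members mostly agreed between these arrays. Cenpf, a kinetochore protein of late G2, was above background on 2 control arrays and 1 STL array, and control 3 and control 4 were the highest. For Cenpf, log2 signals were -5.23, -4.88, -2.86 and -2.70 on the controls (1 to 4) and -6.01, -4.68, -5.86 and -4.83 on the STL arrays (5 to 8).

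Other genes of the cell cycle were taken from lists fixed for this comparison. Of 70 tested genes of mitosis outside the 45, 57 were lower (41.9% of all genes), with a median of -0.54. Of these, 28 had an unadjusted p under 0.05 (7.40% of all genes). No gene of this or of any list below passed the adjusted threshold in limma, where 0.00461% of all genes did. Hjurp, the chaperone of centromeric histone, differed by -1.74, Incenp, the scaffold of the passenger complex, by -1.22 and Wee1, which restrains CDK1, by -0.77 (unadjusted p = 0.00223, 0.00264 and 0.00262). For Hjurp, the 2 high arrays were control 3 and control 4, at 0.21 and 0.02, whereas Wee1 lay between -0.42 and -0.07 on all 4 control arrays and between -1.30 and -0.56 on the STL arrays. Wee1 was thus lower on every STL array, with a small gap among the controls. Control 3 and control 4 were again its highest arrays, and STL 6 (-0.56) lay near control 1 (-0.42). Every STL sample lay below every control sample for 10 of the 70, against 5.63% of all genes.

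The regulators of these genes (DREAM, MuvB, E2F and MYB) had no common direction, with 11 of 20 lower and a median of -0.05. Mybl1, the gene of A-MYB, differed by -1.07, Lin9, a MuvB subunit, by -0.75 and Lin52, another, by 0.62. For Lin9 the groups overlapped, with STL 6 (-1.195) above control 1 (-1.275) and control 2 (-1.519). Of 40 DNA replication genes, 36 were lower, with a median of -0.40 and 15 lower at an unadjusted p under 0.05 (7.40% of all genes). The replicative helicase genes Mcm6 and Mcm5 differed by -2.04 (above background on 2 STL arrays) and -1.45, and Mcm10, which acts with that helicase at origins, by 1.33. Mcm5 was highest on control 3 and control 4, at 0.17 and 0.01. Its control 1 and control 2 (-1.513 and -1.451) lay within the STL range of -2.392 to -1.205. For Mcm6, STL 6 (-3.142) lay above control 1 (-3.267). In the G1 list, 14 of 17 were lower, with a median of -0.29. Ccnd1, the gene of cyclin D1, differed by -1.45 (unadjusted p = 0.000535). It lay between 1.74 and 2.46 on the control arrays and between 0.30 and 1.37 on the STL arrays, without overlap. By sample, 4 of the 17 genes lay below every control in STL, against 5.63% of all genes. Ccne2 (cyclin E2) differed by -1.24 and Cdc25a, a phosphatase that activates CDKs, by -0.59.

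Markers of other cells and of preneoplastic foci differed between arrays as well. As medians over each list, relative to each gene's mean over the samples, the members lay at -0.50, -0.52, 1.33 and 1.25 on control 1 to 4 and at -0.61, -0.33, -0.59 and -0.45 on STL 5 to 8. The 14 preneoplastic focus markers, among them Gstp1, lay at 0.02, 0.07, 0.71 and 1.82 on the controls and at -0.64, 0.73, -0.72 and -1.07 on the STL arrays. All 14 had a lower mean in STL, with a median of -1.44 and 7 at an unadjusted p under 0.05 (7.40% of all genes). STL 6 was thus level with control 3 for the focus markers and lay far below it for the mitosis genes. The summed linear signal of the focus markers, in multiples of the 75th percentile, was 229 to 649 on the control arrays and 103 to 355 on the STL arrays.

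The cholangiocyte and progenitor markers were highest on control 4, at 1.5, then on STL 6, at 0.52, with control 3 at 0.14. Of 7 tested, 6 were lower, with a median of -1.04. Their summed signal ranged from 5.15 to 12.0 in controls and from 2.43 to 6.06 in STL. Of 9 stellate cell markers 7 were lower (median -0.50, summed signal 49.1 to 98.3 against 32.2 to 47.4). Hepatocyte markers were higher in STL for 9 of 10, with a median of 0.27, and control 4 was lowest at -0.52. Their summed signal was 2880 to 4339 in controls and 3927 to 5907 in STL. Of the macrophage markers 7 of 9 were lower (median -0.12), of the lymphocyte markers 2 of 9 (0.17), of the endothelial markers 3 of 6 (0.04) and of the neutrophil and mast cell markers 4 of 5 (-0.66). Sums in control and STL arrays were 124 to 153 and 110 to 153 for macrophages, 13.3 to 18.3 and 13.8 to 19.9 for lymphocytes, 41.7 to 61.2 and 57.6 to 82.4 for endothelium and 1.13 to 2.36 and 0.636 to 1.46 for neutrophils and mast cells. Cd3e, Cd2, Ms4a1 and Mpo were not above background on any array. The part of these cells in the signals of the mitosis genes was not tested.

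**Figure D5:**
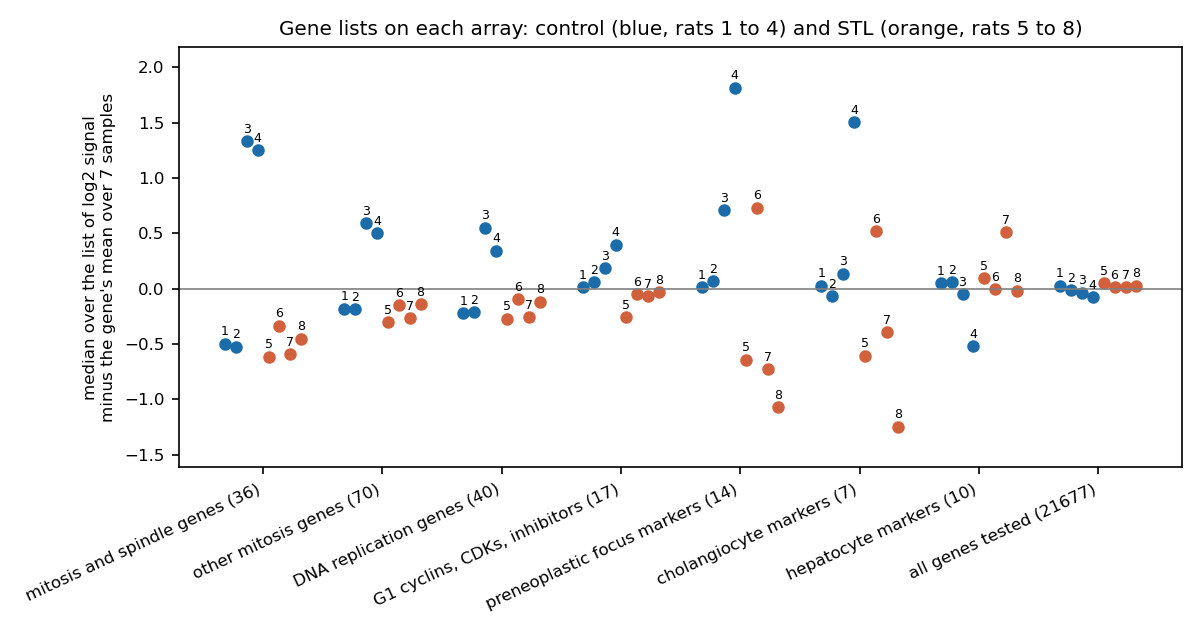
Median over each gene list of the log2 signal minus the gene's mean over the 7 samples, on each control (blue, rats 1 to 4) and STL (orange, rats 5 to 8) array, with the number of tested genes per list in parentheses. Rats 3 and 4 stand apart for the mitosis, other mitosis and DNA replication genes, while rat 4 is the highest for the focus and cholangiocyte markers.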

How the data were processed

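The arrays are Agilent 1-colour arrays of total liver RNA, labelled with Cy3 per the labels. The deposited scanner files give each spot's intensity, made with Agilent Feature Extraction (version 11.5.1.1 per the file headers, 10.7 per the submitters' processing notes), with probe positions on the rn4 build, per the file headers. The authors' deposited series table holds the same intensity scaled on a linear scale. Of its 8 columns, 6 matched a different array than their label names, always within the group (0 across groups), so it was used only as an alternative.

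Values are log2 of the processed signal, averaged over the spots of a probe not flagged as outliers, less the array's 75th percentile (control probes left out). The brightest probe stood for a gene. The test took genes that 4 or more of the 8 arrays had well above background. Control 1 and control 2 were averaged because their noise ratio was under 1.5, a limit set with the ratios known. The design written first had each array as a sample. The two-sided test was limma 3.58.1 (R 4.3.3; lmFit, then eBayes with trend), Benjamini-Hochberg adjusted over 21677 genes at a threshold of 0.05. A dim gene's fold sets the control mean, as measured, against a floor for each STL array. That floor is the larger of the probe's own signal and the lowest signal well above background. The members and the gene lists were chosen with earlier results of these data known. In each role, the member with the highest signal and the 2 with the smallest unadjusted p are given on every array, as are those whose probes differ in sign and those dim on an array of only 1 group; Pbk and Cenpf were added afterwards. From each other list, at most 3 genes with the smallest unadjusted p are named. Promoters are RefSeq's, of GRCr8, shown for 4 members with the smallest p, and the probes of Aurka and Smc4 were added for their difference in sign. On simulated data of 21677 genes the fit called 54.0% of genes changed by log2 1, 83.0% by log2 2 and 17 of 64431 unchanged genes. The changed genes were drawn from all genes, with noise independent between genes. These shares therefore do not give the power for the members, whose controls spread widely (SD 1.29 for Top2a, 1.47 for Ccna2) and moved together. The number of arrays limits the precision. The 19 alternatives covered the filter, the scaling, background correction, probe choice, slide column, array weights, the control pair and leaving out each sample. Python 3.11.15, pandas 2.3.3 and matplotlib 3.10.9 were used.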

Additional observations from a re-analysis of the deposited data

How the results depend on the processing

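Over the 19 alternatives, of which 2 (control 1 alone or control 2 alone for the pair) were chosen after seeing the data, the 36 members gave 682 values: 636 kept their direction and side of the threshold, 44 passed it and 2 turned sign, Aurka to -0.16 and Smc4 to -0.13, both with the mean of the probes of a gene. The cause of the crossings was not tested. The count past the threshold was 0 except for 18 with array weights and 26 without control 1 and control 2, so that leaving out samples gave 0 to 26. Between 31 and 40 members were lower in STL under every alternative, as the filter sets how many were tested. The median difference ran from -1.77 to -0.89 when samples were left out and was -0.80 with normexp background correction. The count of members whose STL samples all lay below every control was 1 with 8 arrays as samples, 1 with normexp, 1 with the series table and 1 with the slide column as a block. It ran from 4 to 33 when samples were left out, with 33 without control 1 and control 2 (12.6% of all genes) and 9 without STL 6 (11%). The control and STL groups share no replicate number. With the slide column as a block, which sets 1 control against 1 STL array in each column, 0 members passed (0.00461% of all genes in either direction). Dim probes limit Cdca8, Kif2c and the 7 untested members.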
